A study of Sus scrofa with 6 samples.

Results

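C1QTNF3 (C1q and TNF related 3, also called CTRP3) is a secreted protein of the adiponectin family, and its transcript was followed here in the backfat of castrated and intact male pigs. The array carries 1 probe set whose only gene symbol in the platform annotation is C1QTNF3. It is 1 of 24123 deposited probe sets, of which 23999 remained without controls and 14399 were bright enough to be tested. The gene was chosen by its signal in these same pools, which differed between barrows and boars, so its own values and rank are a description and carry no test.

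Barrows are male pigs whose testes were surgically removed, here at 7 days of age. Boars are their intact full brothers. All animals were crosses of a Pietrain sire with a Landrace dam, were weaned at 30 days, ate freely and were slaughtered at 175 days. The tissue was the middle backfat layer at rib 6. From 15 brother pairs, RNA of 5 animals of a kind was mixed into a pool, which gave 3 barrow pools and 3 boar pools with an Affymetrix array each. The spread between arrays is therefore the spread between pools and not between single pigs.

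Proteins of this family carry a collagen-like stretch and a globular C1q domain at the C-terminal end, and they are released as trimers or larger assemblies. Adiponectin, the best known of them, comes almost wholly from adipocytes and raises insulin sensitivity through the receptors ADIPOR1 and ADIPOR2. C1QTNF3 was first described in growing cartilage of mice. In mice it lowers blood glucose by restraining glucose output of the liver, and in human cells it has been described to counter inflammation evoked by lipopolysaccharide.

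C1QTNF3 signal was several times higher in barrow fat than in boar fat in every pool. The MAS5 signal, a linear intensity that the authors scaled alike on each array, was 1229, 873 and 1275 in barrow pools 1, 2 and 3, against 315, 351 and 346 in boar pools 1, 2 and 3. The groups did not overlap, and the lowest barrow pool had 2.49 times the signal of the highest boar pool. For comparison, all 3 barrow pools stood above all 3 boar pools in 8.38% of the tested probe sets, and the gene was chosen for lying among them. Mean signal was 1126 ± 220 in barrows and 337 ± 19.6 in boars (SD, n = 3 each), a ratio of means of 3.34.

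On the scale used for all comparisons, log2(signal + 16), C1QTNF3 averaged 10.14 ± 0.30 in barrows and 8.46 ± 0.08 in boars (SD, n = 3 each). The difference, barrow minus boar, was 1.67, or 3.19-fold. Both group means lay above 6.76, the lowest mean among tested probe sets, so the probe set would have passed the brightness filter on either group alone. Between pools of the same number, the difference was 1.91 for number 1, 1.28 for number 2 and 1.83 for number 3. The smallest of these came from barrow pool 2. Leaving out 1 pool at a time moved the difference between 1.58 (without barrow pool 3) and 1.85 (without barrow pool 2).

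**Figure D1:**
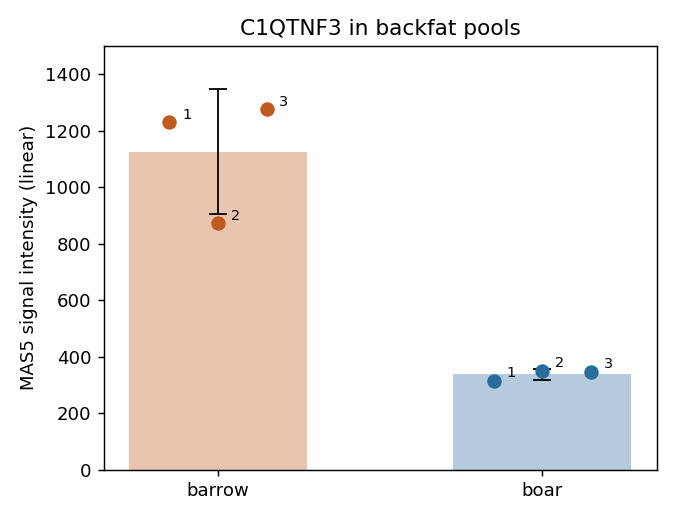
MAS5 signal intensity of C1QTNF3 (linear axis from 0) in the 3 barrow pools and the 3 boar pools. Points are pools labelled by number, bars are group means and error bars are SD. The barrow pools lie between 873 and 1275 and the boar pools between 315 and 351.

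Spread differed between the groups. Within barrows the highest C1QTNF3 signal was 1.46 times the lowest, and within boars it was 1.11 times the lowest. Among 1576 tested probe sets whose mean log2 signal lay within 0.25 of that of C1QTNF3, the SD between barrow pools had a median of 0.13, and 92.1% of them had a smaller SD than C1QTNF3. Between boar pools the median SD was 0.11, and 32.1% had a smaller SD than C1QTNF3. Its variation among barrow pools was thus larger than that of most probe sets of like mean over the 6 arrays, and that among boar pools was not. C1QTNF3 averaged 10.14 in barrows and 8.46 in boars, so brightness was not matched within either group.

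The first principal component of all arrays held 31.6% of the variance and separated the groups. Its scores were 15.5, 2.24 and 17.2 in boar pools 1, 2 and 3, and -9.49, -21.4 and -4.12 in barrow pools. Barrow pool 2, the pool with the lowest C1QTNF3 signal of the barrows, lay at the far end on the barrow side. Its log2 3'/5' ratio, a measure of RNA integrity in which higher values mean less full-length RNA, was 1.52 for actin, against 1.72 and 1.81 in barrow pools 1 and 3 and 1.67 to 1.82 in boars. For GAPDH the ratio was 0.99 in barrow pool 2, against 1.24 and 1.21 in the other barrow pools and 1.06 to 1.16 in boars. The group means of this ratio were 1.68 ± 0.15 in barrows and 1.73 ± 0.08 in boars for actin (SD, n = 3 each, 2-sided exact permutation p = 0.8), and 1.14 ± 0.14 in barrows and 1.11 ± 0.05 in boars for GAPDH (exact permutation p = 0.7). The smallest p this design allows is 0.1. Between arrays of a group, log2 signals correlated at 0.978 to 0.988. The part of RNA quality in the C1QTNF3 spread among barrows was not tested, and without barrow pool 2 the difference between the groups was 1.85.

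Ranked by the difference barrow minus boar, C1QTNF3 was number 2 of 5356 genes with a symbol, each represented by its brightest tested probe set. Over the 14399 tested probe sets it was number 3, and over all 23999, dim ones included, number 11. The only gene above it was PIP, the prolactin-induced protein of exocrine glands. It had signals of 207, 1508 and 219 in barrow pools 1, 2 and 3, against 13.7, 3.83 and 29.9 in boar pools, a log2 difference of 3.84. Its mean log2 signal in boars was 4.91, so PIP passed the brightness filter through its barrow signals. The other probe set above C1QTNF3 has no gene symbol and had 534, 1289 and 565 in barrows, against 41.6, 58.5 and 41.3 in boars.

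Both probe sets above C1QTNF3 peaked in barrow pool 2, where C1QTNF3 was lowest among barrows. The next genes below C1QTNF3 were the ubiquitin-like protein ISG15 (log2 difference 1.61), the antiviral enzyme RSAD2 (1.52) and the deubiquitinating enzyme UCHL1 (1.41). They were followed by the cartilage matrix protein COMP (1.33), the fructose transporter SLC2A5 (1.12) and the ATP synthase subunit ATP5I (1.09). In boars the mean log2 signal of UCHL1, 6.7638, lay just below the lowest tested mean, 6.7645, so its barrow signals carried it past the filter. By the gap between the lowest barrow pool and the highest boar pool on the log2 scale, C1QTNF3 was again number 2 of 5356 genes.

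**Figure D2:**
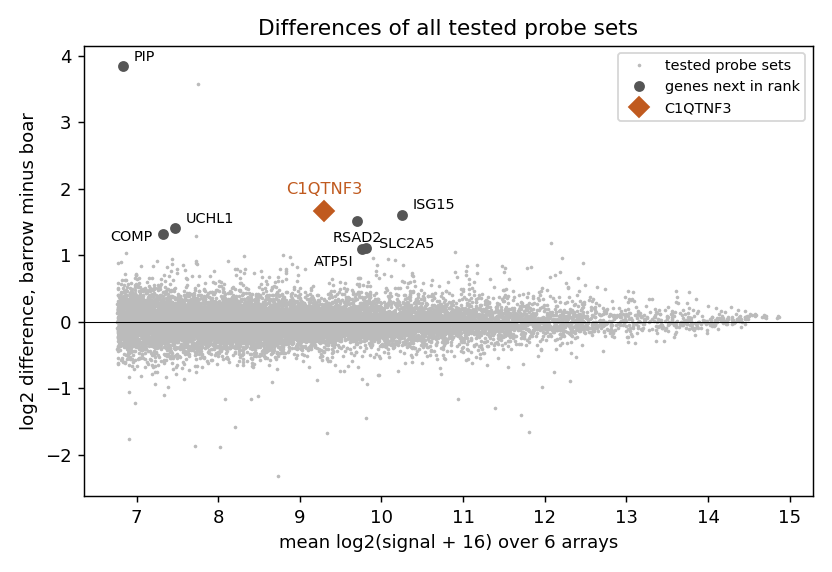
Log2 difference (barrow minus boar) of each of the 14399 tested probe sets against its mean log2(signal + 16) over the 6 arrays. The diamond is C1QTNF3 at 1.67, and the dark points are the genes next to it in rank, PIP at 3.84 above and ISG15, RSAD2, UCHL1, COMP, SLC2A5 and ATP5I below.

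None of the measured relatives of C1QTNF3 passed the test between barrows and boars. Across the whole array 167 of 14399 tested probe sets changed (limma, Benjamini-Hochberg adjusted p under 0.05), which is 1.16%, with 101 (0.701%) higher and 66 (0.458%) lower in barrows. An unadjusted p under 0.05 was reached by 1753 tested probe sets, or 12.2%. Of the other C1q and TNF-related proteins 5 of 10 were on the array and 4 were tested, and 0 passed limma's threshold, also at an unadjusted p under 0.05. Their median log2 difference was 0.03 and their range -0.19 to 0.16, beside a median of -0.01 over all tested probe sets.

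ADIPOQ, which encodes adiponectin, had signals of 21607, 23039 and 18954 in barrow pools, against 21993, 23053 and 21686 in boar pools. The groups overlapped, and the log2 difference was -0.07 (95% CI -0.24 to 0.09, limma adjusted p = 0.76). Signals this bright can be compressed on such arrays. C1QTNF2, a paralogue that in mice promotes fat oxidation, had 316, 215 and 306 in barrows, against 372, 263 and 320 in boars, a log2 difference of -0.19 (95% CI -0.58 to 0.20, limma adjusted p = 0.74).

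C1QTNF5, a family member best known from the retina, had a log2 difference of 0.14 (95% CI -0.14 to 0.42, limma adjusted p = 0.73). C1QTNF6 had 414, 256 and 486 in barrows, against 362, 285 and 356 in boars, a log2 difference of 0.16 (95% CI -0.30 to 0.61, limma adjusted p = 0.83). Its other tested probe set had 0.26 (limma adjusted p = 0.59). C1QTNF12 fell below the brightness filter, with means of 44.3 ± 42.1 in barrows and 43.8 ± 21.2 in boars (SD, n = 3 each).

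Among other proteins with a C1q domain, 6 of 21 were on the array and 4 were tested, with a median log2 difference of -0.15. The limma fit called 0 of them, and 1 had an unadjusted p under 0.05. That one was C1QA, a chain of complement C1q made by macrophages, with 1125, 943 and 978 in barrows, against 1554, 1166 and 1446 in boars. All barrow pools lay below all boar pools, as in 9.76% of tested probe sets, and the log2 difference was -0.44 (limma adjusted p = 0.13). With the replicate number as a block C1QA fell (adjusted p = 0.035), in a fit that called 2.35% of all tested probe sets, 1.49% higher and 0.854% lower in barrows.

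C1QC, another C1q chain, had a log2 difference of -0.23 (limma adjusted p = 0.53), and EMILIN2, a matrix glycoprotein, had -0.08 (limma adjusted p = 0.90). COL8A1, a short-chain collagen, had 0.28 in its tested probe set (limma adjusted p = 0.77). CBLN2 and COL10A1 fell below the filter, with means of 16.5 ± 12.3 and 10.6 ± 3.60 in barrows and 6.22 ± 4.82 and 30.4 ± 9.78 in boars (SD, n = 3 each).

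**Figure D3:**
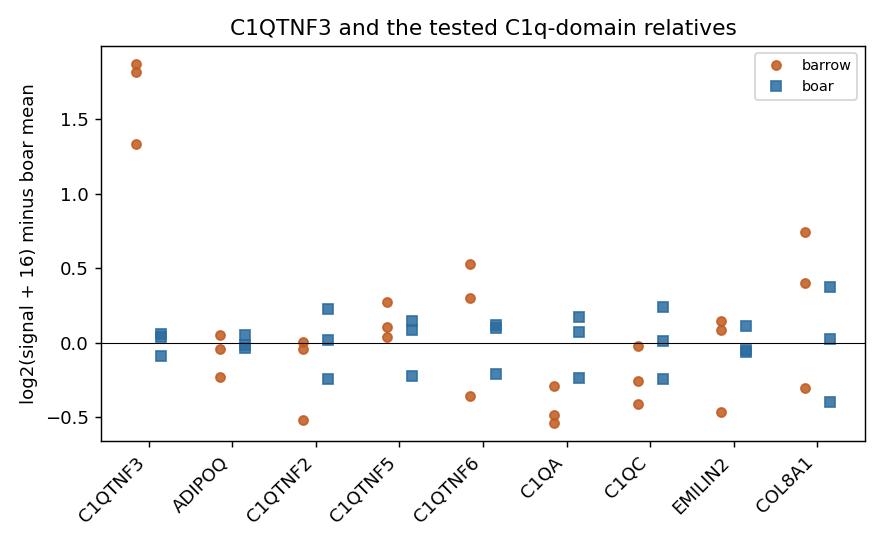
Log2(signal + 16) in each pool minus the boar mean of the same gene, for C1QTNF3 and the 8 tested genes with a C1q domain, each by its brightest tested probe set. Circles are barrow pools and squares boar pools, and of these genes C1QTNF3 alone has all barrow pools above 1.

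The adiponectin receptors and the AMP-activated kinase pathway below them were examined as candidate partners of the family. Of 16 genes 12 were tested, the limma fit called 0, 1 had an unadjusted p under 0.05, and the median log2 difference was -0.05. ADIPOR2, the receptor linked to PPARα, had 11390, 12352 and 10527 in barrows, against 8762, 9772 and 8546 in boars. The groups did not overlap, and the log2 difference was 0.34 (95% CI 0.16 to 0.51, limma adjusted p = 0.080, and 0.020 to 0.35 over the alternatives). With the replicate block ADIPOR2 rose (adjusted p = 0.020), while its other probe set had 0.12 (limma adjusted p = 0.73, and 0.46 with the block).

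ADIPOR1, the receptor linked to AMP kinase, had a log2 difference of -0.02 (95% CI -0.33 to 0.28, limma adjusted p = 0.97). CDH13, the cell surface cadherin that binds large adiponectin assemblies, had signals of 2322, 2039 and 2598 in barrows, against 2283, 2428 and 2239 in boars, and a limma adjusted p of 0.99. APPL1, the adaptor of both receptors, had -0.21 (limma adjusted p = 0.51), and the kinase subunit PRKAG3 had 0.42 (limma adjusted p = 0.45).

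Chaperones and enzymes that fold, hydroxylate and assemble collagen-like proteins of the secretory pathway were tested for 14 of 19 genes. The limma fit called 0 of them, 1 had an unadjusted p under 0.05, and the median log2 difference was -0.05, with a range of -0.23 to 0.13. The chaperone HSP90B1 had -0.17 (limma adjusted p = 0.35) and the disulfide isomerases PDIA3 and PDIA4 had -0.17 and -0.16 (limma adjusted p = 0.50 and 0.63).

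Genes of the lipopolysaccharide receptor and NF-κB were tested for 13 of 21 genes, with 0 called by limma, 0 at an unadjusted p under 0.05 and a median log2 difference of -0.05. TLR4, the receptor, had signals of 810, 727 and 692 in barrows, against 666, 863 and 688 in boars in its brightest probe set. The groups overlapped, with a log2 difference of 0.01 (95% CI -0.25 to 0.28, limma adjusted p = 0.98). The chemokine CCL2 had -0.16 (limma adjusted p = 0.53) and the cytokine IL1B had 0.29 (limma adjusted p = 0.57).

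Gluconeogenesis and ketone body enzymes were listed because C1QTNF3 acts on glucose output of the liver in mice. Of 12 genes 6 were tested and 2 rose, 0 fell (0.701% and 0.458% of all tested probe sets), and the median log2 difference was 0.16. FBP2, the muscle form of fructose-1,6-bisphosphatase, had 1524, 1442 and 1557 in barrows, against 1037, 943 and 976 in boars, and its log2 signal rose by 0.61 (95% CI 0.42 to 0.79, limma adjusted p = 0.0087). FBP1, the liver form, had 1350, 1194 and 1178 in barrows, against 822, 614 and 839 in boars, and rose by 0.71 (95% CI 0.43 to 0.99, limma adjusted p = 0.028). FBP1 and FBP2 are paralogues, and whether their probes share transcripts was not tested.

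Both calls were lost in some of the alternatives. Under the alternatives the limma adjusted p of FBP2 ran up to 0.0665, the value without the intensity trend, and its call was also lost without barrow pool 1 (0.051), boar pool 1 (0.054) or boar pool 3 (0.063). That of FBP1 was lost without barrow pool 1 (0.12), barrow pool 3 (0.077), boar pool 1 (0.092) or boar pool 3 (0.071), and also with no brightness filter (0.057) and without the intensity trend (0.12). OXCT1, which activates ketone bodies for use, had 0.31 (limma adjusted p = 0.083) and rose with the replicate block (adjusted p = 0.036). PCK1, which feeds glycerol synthesis in fat, had -0.33 (limma adjusted p = 0.34).

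Cartilage and tendon genes were listed because C1QTNF3 was first found in cartilage. Of 25 genes 9 were on the array and 5 were tested, with a log2 difference above 0 in 4 and below 0 in 1. COMP had 234, 214 and 270 in barrows, against 112, 103 and 52.3 in boars, a log2 difference of 1.33. Its mean log2 signal in boars, 6.66, lay below the lowest tested mean, so only the barrow signals of COMP carried it past the filter, and its call in the fit carries no weight. With no filter its limma adjusted p was 0.068, and over the alternatives it ran from 0.020 to 0.11. The limma fit called 0 of the other 4, and 1 of them, CILP, had an unadjusted p under 0.05.

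CILP, a matrix protein of cartilage, had 2427, 1912 and 2651 in barrows, against 1921, 1779 and 2007 in boars. The groups overlapped, with a log2 difference of 0.28 (limma adjusted p = 0.36). The collagen COL2A1, the main collagen of cartilage, had -0.23 (limma adjusted p = 0.65), and ACAN, SOX9 and HAPLN1 fell below the brightness filter.

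Backfat holds several cell types, and a bulk array cannot tell fewer cells of a type from less RNA per cell. Marker genes of 8 cell types were set beside C1QTNF3. Adipocyte markers, 12 of 18 tested, had summed signals of 87958 to 95772 in barrows and 94632 to 97620 in boars and a median log2 difference of -0.04. FABP4, a fatty acid carrier on the adipocyte list, had 18764, 17174 and 15578 in barrows, against 18148, 19692 and 17794 in boars. No marker of the 8 lists was listed at 0 on any array. Leptin, LEP, rose by 0.58 (limma adjusted p = 0.021), a call lost without boar pool 1 (0.14), boar pool 3 (0.067) or barrow pool 1 (0.091), and without the intensity trend (0.11). RBP4, the retinol carrier, had -0.46 (limma adjusted p = 0.12) and fell with the replicate block (adjusted p = 0.013).

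Stromal progenitor and fibroblast markers, 16 of 20 tested, had summed signals of 50946 to 70359 in barrows and 61998 to 70055 in boars. The limma fit called 0 of them, and the median log2 difference was -0.09. An unadjusted p under 0.05 was reached by 6, 3 higher and 3 lower in barrows, as by 12.2% of all tested probe sets. With the replicate block 1 rose and 2 fell (1.49% and 0.854% of all tested probe sets). They were FBLN1 (0.50, adjusted p = 0.069 without the block and 0.047 with it), DPT (-0.32, adjusted p = 0.060 without it and 0.041 with it) and the collagen cross-linker LOX (-0.37, adjusted p = 0.15 without it and 0.035 with it).

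The mean log2 signal of these stromal markers was 11.10, 10.80 and 11.11 in barrow pools 1, 2 and 3, against a mean of 11.05 ± 0.05 in boars (SD, n = 3). Barrow pool 2 was thus low in stromal markers as it was in C1QTNF3. It was also the lowest barrow pool in 40.1% of all tested probe sets, against 27.5% for pool 1 and 32.5% for pool 3. Smooth muscle and pericyte markers, 8 of 14 tested, had 9.86, 9.46 and 9.84 in barrow pools, against 9.70, 9.67 and 9.75 in boar pools, again lowest in barrow pool 2. Of these the potassium channel KCNJ8 fell with the replicate block (-0.49, adjusted p = 0.057 without it and 0.048 with it). The part of stromal cells in the order of the barrow pools was not tested.

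Macrophage, endothelial and lymphocyte markers had median log2 differences of -0.26 (8 of 15 tested), -0.20 (12 of 15 tested) and -0.25 (5 of 16 tested). At an unadjusted p under 0.05, 4 macrophage, 4 endothelial and 1 lymphocyte markers were lower in barrows and 0 were higher. Over all tested probe sets 12.2% reached that level, both directions together. The mean log2 signal of the endothelial markers was 9.62, 9.61 and 9.57 in barrow pools, against 9.77, 9.78 and 9.80 in boar pools, so that the groups did not overlap. That of the macrophage markers was 9.98, 9.93 and 9.83 in barrow pools, against 10.24, 9.99 and 10.17 in boar pools. The part of these cells in the C1QTNF3 difference was not tested. Of these markers 1 fell, the endothelial receptor TEK (-0.47, limma adjusted p = 0.047), whose call was lost without either barrow pool 1 or 3 (0.19 and 0.10) and without either boar pool 1 or 3 (0.25 and 0.24). It was also lost with no brightness filter (0.068), without the intensity trend (0.15) and with the mean of its probe sets (0.23). Its other tested probe set had -0.20 (limma adjusted p = 0.73). Skeletal muscle markers were mostly below the filter, with 2 of 20 tested and summed signals of 333 to 472 in barrows and 301 to 364 in boars.

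Skin and gland epithelium markers, 3 of 14 tested, had summed signals of 644 to 1903 in barrows and 465 to 532 in boars. Their median log2 difference was -0.17, with 1 above 0 and 2 below. The 1 above was PIP, which only the barrow pools carried past the filter, so its call in the fit carries no weight, and with no filter its limma adjusted p was 0.052. The keratins KRT8 and KRT10 had -0.20 and -0.17 (limma adjusted p = 0.77 and 0.64). KRT8 had 158, 95.8 and 138 in barrow pools, against 155, 124 and 174 in boar pools, and was thus lowest in barrow pool 2, where PIP was highest.

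Of the 7 epithelial genes on the array that fell below the filter, KRT19 had 49.6, 59.6 and 77.9 in barrow pools, against 8.65, 3.58 and 10.4 in boar pools. EPCAM had 76.2, 93.0 and 71.7 in barrow pools, against 40.01, 38.6 and 15.9 in boar pools. AQP5, a water channel of glands, had 6.91, 7.07 and 10.99 in barrow pools, against 47.4, 17.1 and 8.39 in boar pools. KRT19 and EPCAM had all barrow pools above all boar pools, as had 8.38% of tested probe sets, and AQP5 overlapped. No such share is given for probe sets below the filter. These genes were named after their values were seen, and the rest of the 7 are not shown. Their signals are dim, so they carry no weight. The part of epithelium in the C1QTNF3 difference was not tested.

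The log2 difference of C1QTNF3 minus that of the mean of each marker list was 1.69 for adipocytes, 1.72 for stroma, 1.89 for macrophages, 1.86 for endothelium, 1.66 for smooth muscle, 1.94 for lymphocytes and 1.37 for skeletal muscle. For skin and gland epithelium it was 0.52, and there the groups overlapped, with the lowest barrow pool minus the highest boar pool at -0.65. That list mean is set by PIP, which only the barrow pools carried past the filter, while the other tested epithelial markers had log2 differences below 0.

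**Figure D4:**
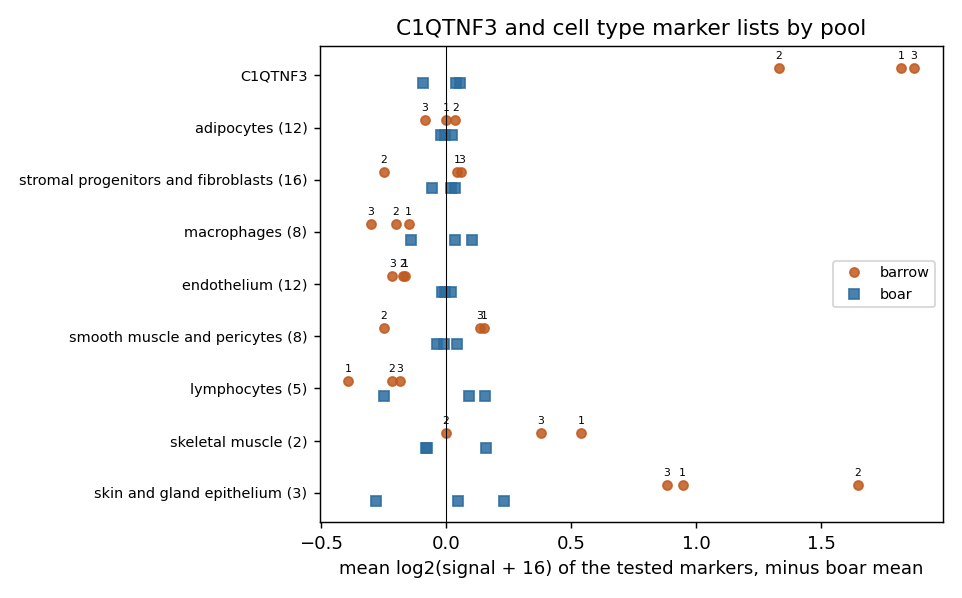
C1QTNF3 and the mean of the tested markers of 8 cell types (number tested in brackets) as log2(signal + 16) minus the boar mean. Circles are barrow pools, labelled by pool number, and squares are boar pools. The C1QTNF3 values of all 3 barrow pools lie far to the right of the boar values, while barrow pools lie on both sides of 0 in the adipocyte and stromal lists, below all boar pools in the endothelial list and above all boar pools in the epithelial list, where PIP sets the mean.

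None of the measured genes next to C1QTNF3 on the chromosome passed the test. In the RefSeq gene order (assembly Sscrofa11.1) its neighbours are AMACR and SLC45A2 on one side and RAI14 on the other, among those with a probe set. AMACR, an enzyme of branched fatty acid oxidation that in humans forms read-through transcripts with C1QTNF3, had 216, 348 and 240 in barrows, against 250, 294 and 308 in boars. The groups overlapped, and the log2 difference was -0.10 (95% CI -0.50 to 0.29, limma adjusted p = 0.88). SLC45A2, a melanosome transporter, had 0.12 (95% CI -0.27 to 0.51, limma adjusted p = 0.86), and the actin-associated protein RAI14 had -0.04 (95% CI -0.30 to 0.21, limma adjusted p = 0.93).

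Genes whose log2 signal followed C1QTNF3 over the 6 arrays were found by Pearson correlation among the other 5355 genes, each by its brightest tested probe set. With 6 arrays in groups that differ, any gene that separates the groups scores high, and 121 genes had r of 0.9 or more and 141 had r of -0.9 or less. These correlations describe the pools, which share their group, and carry no p. The 12 highest ran from 0.981 to 0.999.

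IFI44L, an interferon-induced gene, had the highest r (0.999), with signals of 2688, 2492 and 2709 in barrow pools, against 1879, 1905 and 1894 in boar pools. Its log2 difference of 0.47 was smaller than the 1.67 of C1QTNF3, but the order of the 6 pools was the same. Other tested probe sets of IFI44L had log2 differences of 0.29 and 0.40, and the limma fit did not call them. ISLR, a secreted leucine-rich protein of mesenchymal cells (r 0.997), had 1546, 1346 and 1584 in barrows, against 923, 1016 and 973 in boars. DDX58, an RNA sensor also called RIG-I (r 0.996), had 581, 532 and 627 in barrows, against 330, 340 and 332 in boars.

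HTRA4, a serine protease (r 0.995), had 483, 417 and 453 in barrows, against 272, 280 and 280 in boars. RSAD2 (r 0.992) had 1562, 1016 and 1723 in barrows, against 431, 546 and 460 in boars, and like C1QTNF3 it dipped in barrow pool 2. ISG15 (r 0.986) had 2623, 1533 and 2344 in barrows, against 654, 797 and 604 in boars. The kinase EIF2AK2, which senses double-stranded RNA, had r 0.985, and the mitochondrial carrier SLC25A33 had r 0.981.

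The rest of the 12 were SARS, a seryl-tRNA synthetase (r 0.991), TMEM160 (r 0.985), FAM219A (r 0.983) and NDEL1, a dynein regulator (r 0.981). Their log2 differences were small, from 0.19 for SARS to 0.33 for NDEL1. Of the 12 genes, 6 shared the exact pool order of C1QTNF3 (Spearman rho of 1), as did 19 of all 5355 genes. Between 5 and 9 of the 12 stayed among the 12 highest when 1 pool was left out, with 5 without barrow pool 2, 6 without barrow pool 3 or boar pool 1, and 7 without barrow pool 1.

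The lowest correlations belonged to SNTB1, a syntrophin of the membrane skeleton (r -0.996), RBP7, a retinol-binding protein (r -0.995), and the immediate early factor EGR1 (r -0.995). They were followed by BCKDHA, of branched-chain amino acid breakdown (r -0.994), the lipid phosphatase PLPP1 (r -0.991) and the Mediator subunit MED21 (r -0.988). RBP7 had 1220, 1503 and 1227 in barrows, against 2132, 2089 and 2150 in boars, and was thus highest among barrows in the pool where C1QTNF3 was lowest. SNTB1 had 1791, 1924 and 1746 in barrows, against 2268, 2204 and 2250 in boars.

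**Figure D5:**
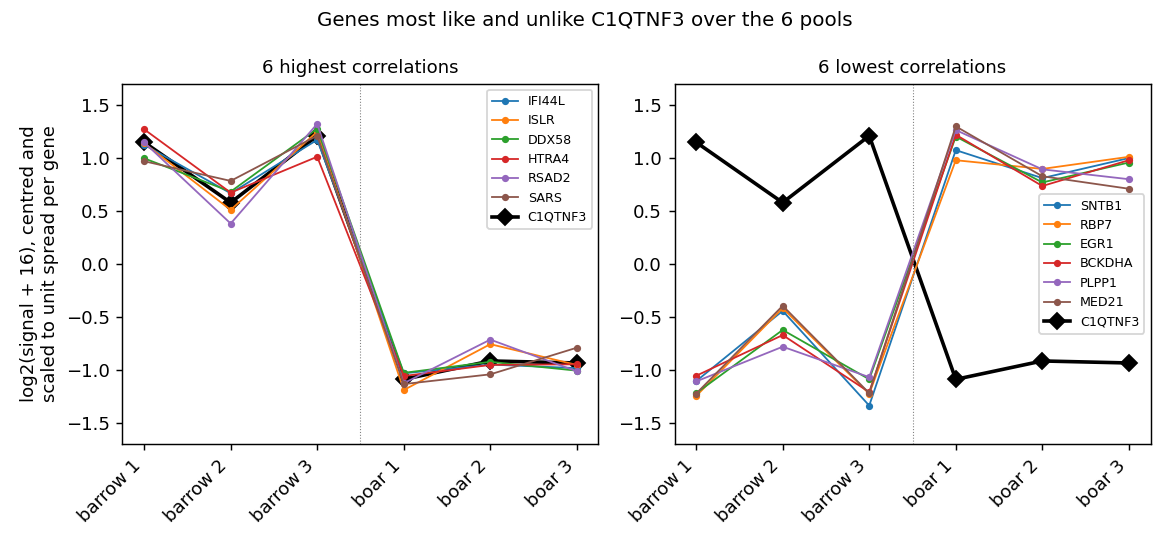
Log2(signal + 16) of C1QTNF3 (thick black line) and of the 6 genes with the highest (left) and the 6 with the lowest (right) Pearson correlation to it, centred and scaled to unit spread per gene, over 3 barrow and 3 boar pools. On the left all genes dip in barrow pool 2, and on the right they peak there among the barrow pools.

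Centring each group removes the difference between barrows and boars and leaves the variation among pools of a group, which for C1QTNF3 is mostly the dip of barrow pool 2. By this measure the most alike genes were the glycosyltransferase MGAT1 (r 0.999), the histone chaperone SET (0.997), the phosphatase regulator PPP1R15B (0.997), the DNA polymerase POLL (0.992), IFI44L (0.991) and the ribosomal protein RPS25 (0.991). MGAT1 had 998, 546 and 1028 in barrows, against 781, 933 and 929 in boars, and its groups overlapped, with a correlation over all 6 arrays of 0.06. IFI44L was the 1 gene named by both measures. In the 12 genes with the highest correlation over all arrays the centred correlation ran from 0.602 for SLC25A33 to 0.991 for IFI44L. A gene picked for so high a correlation over all arrays must have a positive centred one, so the sign carries no weight.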

How the data were processed

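The deposited table holds 1 linear signal intensity per probe set and array, which per the submitters' processing notes was computed with MAS5 by the authors. The version and settings of MAS5 are not given here, and detection calls were not used. On every array the mean after trimming 2% was 500.1, as global scaling gives, and array medians ran from 162 to 173. The number of arrays limits the precision.

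Of 24123 probe sets 10099 had 1 gene symbol, 198 several and 13826 none in the platform annotation, and only those with 1 were named. After 124 controls were left out, values were put on the log2(signal + 16) scale, on which fold changes of dim genes come out too small. The brightest 60% (mean over the 6 arrays) were tested for barrow minus boar with limma 3.58.1 in R 4.3.3 (lmFit, eBayes with an intensity trend, 2-sided, Benjamini-Hochberg over all 14399, threshold 0.05, 95% intervals). In simulated data the fit called 20 of 67 probe sets changed by a log2 of 0.5, 44 of 67 changed by 1 and 66 of 66 changed by 2. It also called 3 of 14199 unchanged ones. Changes of about 0.5 can thus be present in lists where 0 were called. A gene stands for its brightest tested probe set.

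Pools carry numbers 1 to 3 in both groups. Residuals of same-numbered pools correlated at 0.12, 0.17 and 0.26, and other combinations at -0.19 to -0.01. Residuals cancel out over the pools of a group, so the lower values follow in part from the higher ones. On this basis, taken from these same data, a separate fit treated equal numbers as pairs (the replicate block). Calls made with the block carry that limit. The labels do not say what a number marks. The main fit was made without that block, and the blocked value is given where it changes the call of a list member. Of the genes next in rank, SLC2A5 (limma adjusted p = 0.092) and ATP5I (0.15) were not called without the block. With it they were (limma adjusted p = 0.0081 and 0.029).

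The gene, the lists and the rule for named genes were chosen with earlier results of these data known. The rule names C1QTNF3, the 12 genes with the highest and the 6 with the lowest correlation to it, the 6 highest after centring, its relatives and the adiponectin receptors, members of other lists past the threshold or with the 3 smallest p, its neighbours by gene order, and the 6 next in rank. Some genes were named for background beyond it after their values were seen: TLR4, PCK1, FABP4, RBP4, LOX, KCNJ8, KRT19, EPCAM, AQP5, ACAN, SOX9 and HAPLN1.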

Additional observations from a re-analysis of the deposited data

How the results depend on the processing

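The C1QTNF3 difference ran from 1.55 to 1.85 under pseudocounts 1 and 64, quantile normalization and leaving out each pool in turn. It thus moved by less than the SD between barrow pools. The filter and the replicate block cannot change a difference of means in this balanced design, and they left it as it was. Its direction could not turn with 1 pool left out, since the groups do not overlap and the gene was chosen for this difference. The rank of C1QTNF3 among all probe sets, 11, was 175 with pseudocount 1, where dim probe sets gain large differences, 6 with pseudocount 64, 1 in the upper 40%, and 10 to 17 with 1 pool left out. The number of changed probe sets, 167, was 96 without a filter, 338 with the replicate block, 32 without the intensity trend and 24 to 291 with 1 pool left out, namely 24 without boar pool 1, 31 without boar pool 3, 53 without barrow pool 1, 66 without barrow pool 3 and 291 without barrow pool 2. Among the other C1q-domain genes 0 changed, against 1 with the replicate block and 0 to 1 with 1 pool left out, the 1 being C1QA without boar pool 2. In the 5 other pathway lists together 3 members changed, COMP included, against 5 with the block, 1 without a filter, 0 without the trend and 0 to 5 with 1 pool left out. Among cell type markers 3 changed, PIP included, against 9 with the block, 2 with no filter, 5 with the mean of probe sets (TEK not among them), 0 without the trend and 0 to 6 with 1 pool left out. Of the 12 genes most like C1QTNF3, 6 were among those with the highest Spearman rho, and 5 to 9 stayed with 1 pool left out. The cause of these shifts was not tested. Of the named list members called without the block, none lost its call with it. C1QTNF3 rests on a single probe set, and 3 pools a group limit the precision.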
